A study of Mus musculus with 9 samples.

Results

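The R form of Dnmt3a2, an ADD-domain mutant, was set against wild-type Dnmt3a2 (WT) by reduced representation bisulfite sequencing (RRBS), which reads cytosine methylation in CpG dinucleotides close to sites of the enzyme MspI. The comparison used 892375 autosomal CpG positions, each counted separately on either strand. They were covered by at least 10 reads in R, in WT and in cells without a construct (TKO), and their TKO coverage was at least 0.5 times their WT coverage. These were 49.2% of the 1813703 positions seen in any of the 5 tables used, and 70.7% of the 1261657 autosomal positions covered in R, WT and TKO.

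All groups were J1 mouse embryonic stem cells of the Dnmt TKO genotype, at passages 7 to 10 under standard culture. R cells carried the construct R Dnmt3a2, WT cells WT Dnmt3a2 and WWD cells WWD Dnmt3a2, a further mutant. TKO cells had no construct, and the labels of group C record none. WT, R, WWD and C have 2 numbered samples each and TKO has 1, but the labels name a single table for both samples of a group. Each group is therefore read here as 1 pool, the spread between samples cannot be given, and each test below compares 2 pools of reads, not 2 conditions. Nothing in the labels says whether the numbered samples came from separate cultures or clones, which residue R changes, or which promoter drives the constructs. The amount of Dnmt3a2 protein was not measured here.

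Dnmt3a is a de novo DNA methyltransferase, and Dnmt3a2 is its shorter isoform, the main one in embryonic stem cells. Its ADD domain binds the tail of histone H3 when lysine 4 is unmethylated. Methylation of lysine 4, found at active promoters, prevents this binding, and so does phosphorylation of threonine 3, a mark of mitotic chromosomes. Without H3 the ADD domain holds the catalytic domain in an inhibited state. Cells of the Dnmt TKO genotype lack their own Dnmt1, Dnmt3a and Dnmt3b, so a construct acts in them without the usual maintenance enzyme. The methylation read in TKO cells is given beside the results as the level without a construct. The paper on this study linked R to mistargeting in mitosis and to changes of chromosome copy number, the reason for comparing both methylation and read depth.

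Median coverage of the compared positions was 161 reads in R, 137 in WT, 135 in TKO, 138 in WWD and 121 in C. Mean methylation was 0.171% in TKO, which has no construct, and 0.256% in C, for which none is recorded. The depth rule matters for the comparison. The 369282 positions outside it, where WT was read more than 2 times as deeply as TKO, averaged 20.2% in R and 18.0% in WT. Just outside the limit, at a TKO to WT coverage ratio of 0.4 to 0.5, 28413 positions averaged 10.6% in R and 10.1% in WT. Just inside, at 0.5 to 0.6, 42355 positions averaged 10.2% in R and 10.1% in WT.

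R and WT placed nearly the same amount of methylation in these positions. The mean level was 13.3297% in R and 13.2541% in WT, a difference of 0.0755 percentage points (95% interval 0.0674 to 0.0837). This interval, like all those below, covers counting error only, and reads that are PCR copies of a molecule were not marked as such. The intervals and counting SEs over positions also take the CpGs of a read as separate counts. They are therefore too narrow where positions share reads. The interval says nothing of the variation between cultures, which the pools do not show. WWD, at 3.41%, lay far below both. When reads rather than positions were weighted equally, the level was 13.4% in R (Wilson 95% interval 13.4312% to 13.4422%) and 13.0% in WT (13.0312% to 13.0430%). The difference was then 0.3996 points, so the weighting of deep positions moved it more than counting error did.

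Position by position the 2 pools followed each other. Pearson's r across the positions was 0.955, a description over CpGs that share libraries and neighbours. No methylated read was seen in either pool at 302215 positions, 33.9% of all. Differences stayed within 5 points at 77.3% of positions, within 10 points at 90.4% and within 20 points at 98.4%. The SD of the differences was 5.99 points, against 3.93 points from counting reads alone, so their variance was 2.32 times the counting variance. CpG sites read on both strands gave a second scale. Over 87159 such sites the mean absolute gap between the strands was 6.38 points within R and 6.01 within WT, while R and WT differed by 2.33 points on the same strand. Strand gaps of a site were thus larger than the gaps between pools, and R shared them with WT: r between R and WT on the same strand was 0.964, but 0.717 between the strands of R.

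The share of positions above a given level differed by little. Above 5% methylation it was 40.9% in R and 40.6% in WT, and above 20% it was 26.4% and 26.6%, lower in R. R had 4.44% of positions above 60% methylation and WT had 4.09%. Above 80%, R had 3581 positions and WT 2582. Above 90% the counts were 234 and 229.

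The WWD pool allowed positions to be sorted by a level that neither side of the comparison supplied. Where WWD reads showed no methylation, 475034 positions averaged 2.60% in R and 2.64% in WT. Where WWD was above 0 and up to 5%, R averaged 12.8% and WT 13.1%, a difference of -0.223 points. The sign turned in the next class, at WWD levels above 5 and up to 20%, with 38.5% in R and 38.1% in WT. For WWD levels above 20 and up to 40%, 31819 positions averaged 60.4% in R and 58.4% in WT. The 6093 positions above 40 and up to 60% averaged 72.8% in R and 70.2% in WT, and the 687 positions above 60% averaged 79.96% and 77.1%. R therefore exceeded WT by 2.07, 2.61 and 2.83 points in the 3 classes that WWD methylated most. Coverage moved along with this order: the R to WT coverage ratio, relative to all autosomes, went from 0.993 where WWD was at 0 to 1.07 where it was above 60%. The part of coverage in these differences was not tested.

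CpG density within 1 kb tiles, a stand-in here for the distance from CpG islands since the build's annotation was not used, went with the level in both pools but hardly with the difference. In tiles with 1 to 4 positions the mean was 28.3% in R and 28.4% in WT. In tiles of 5 to 9 positions it was 23.6% and 23.4%, and in tiles of 10 to 19 it was 8.37% and 8.14%. In tiles of 20 to 39 positions R had 1.21% and WT 1.11%. In the densest tiles, of 40 or more, R had 0.416% and WT 0.371%, both above the TKO mean of 0.126% in those tiles. CpG-dense DNA thus stayed nearly unmethylated under either construct. R was 1.12 times WT in the densest tiles, a difference of 0.0444 points.

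The clearest pattern went with the CpG count of 1 Mb blocks: R stood above WT in blocks with few covered CpG positions and below WT in blocks with many. To hold the local density fixed, it is given first for positions in tiles with under 5. In 640 blocks with under 100 positions, R averaged 20.2% and WT 18.4%, 1.74 points more in R (counting SE 0.0386). In 384 blocks of 100 to under 200 positions R had 25.3% and WT 24.6%, and in 316 blocks of 200 to under 300 they had 27.9% and 27.6%. The order then reversed. R had 30.2% and WT 30.3% in 439 blocks of 300 to under 500 positions. Levels were 30.2% and 30.6% in 467 blocks of 500 to under 1000. In the 170 blocks of 1000 or more, R had 28.1% and WT 28.8%, a difference of -0.787 points (counting SE 0.0256). The R to WT ratio fell at each step, from 1.09 to 0.973. These classes were chosen after the data had been seen, and the difference was described without a test.

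**Figure D1:**
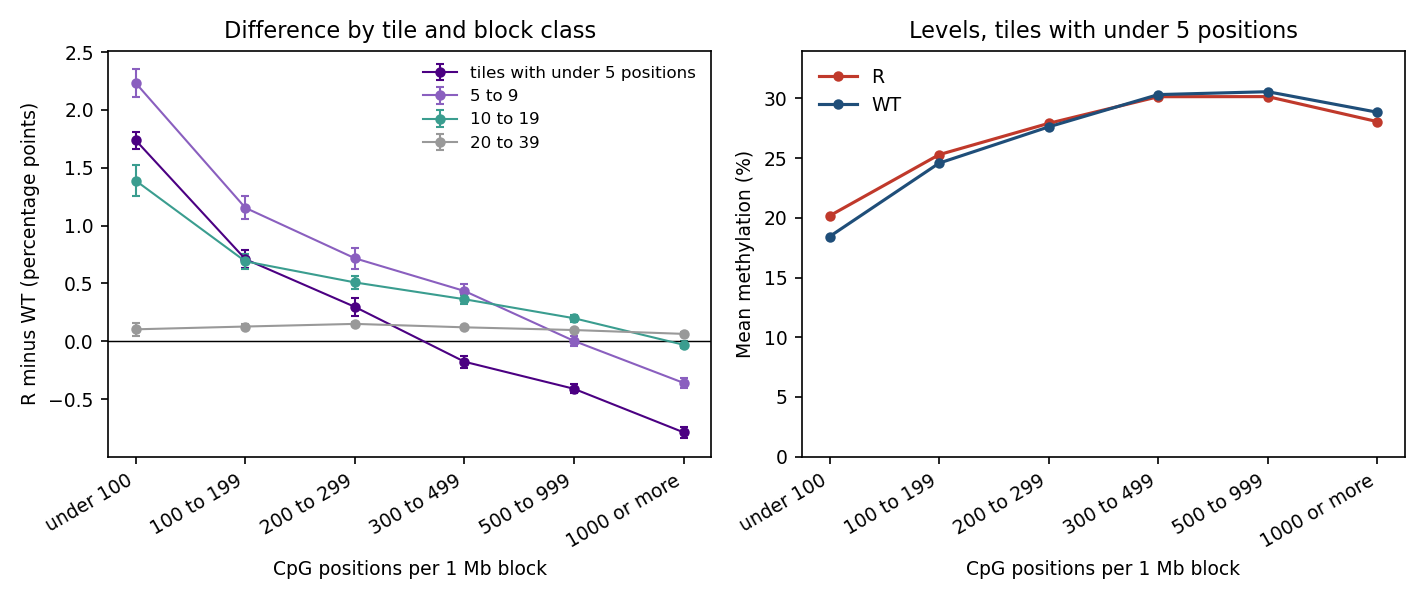
Left, the difference R minus WT in percentage points (vertical axis) by the number of CpG positions in the 1 Mb block (horizontal axis), with 1 line for each class of positions per 1 kb tile and bars of the 95% counting interval; right, mean methylation in percent of R and WT in tiles with under 5 positions, where R goes from above WT (20.2% against 18.4%) in the sparsest blocks to below it (28.1% against 28.8%) in the densest.

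Other local densities went the same way. In tiles of 5 to 9 positions the difference was 2.23 points in blocks with under 100 positions and -0.360 points in blocks of 1000 or more. In tiles of 10 to 19 it was 1.39 and -0.0301 points. In tiles of 20 to 39, where WT itself stayed at 0.769% to 1.46%, it ranged from 0.0641 to 0.150 points and was above 0 in every class of block. In points, a change of sign with block density was thus seen in the tile classes with the higher levels. The R to WT ratio also fell in tiles of 40 or more positions, where WT stayed at 0.244% to 0.503%. It was 1.22 in the sparsest blocks, over only 698 positions, and 1.08 in the densest. In tiles of 20 to 39 the ratio was highest, at 1.196, in blocks of 200 to under 300 positions. It was lowest there, at 1.04, in the densest blocks. WWD did not share the change in tiles with under 5 positions in the same form. Its ratio to WT in those tiles was 0.220 in the sparsest blocks and 0.229 in the densest. R and WWD are both set against WT here, so their ratios are not independent, and R over WWD went from 4.97 to 4.24.

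Within tiles of under 5 positions, the change of sign from sparse to dense blocks was also seen in subsets of the positions. On the forward strand the difference in tiles with under 5 positions went from 1.72 points in the sparsest blocks to -0.700 in the densest, and on the reverse strand from 1.75 to -0.872. With a single position in the tile it went from 1.76 to -0.977. With at least 100 reads in R and WT it went from 1.76 to -0.773, as large as over all of these positions. The R to WT coverage ratio was 1.19 in the sparsest and 1.21 in the densest of these blocks, close to the 1.18 over all positions. By WWD level the difference was likewise larger in sparse blocks, but it did not always change sign. Where WWD was at 0, the difference was 0.611 points in blocks of under 200 positions and -0.801 points in blocks of 500 or more. Where WWD was above 20 and up to 40%, it was 3.72 and 1.55 points. Thus R was above WT in both kinds of block at the positions that WWD methylated most, and more so in sparse blocks.

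Every autosome showed R above WT in sparse blocks. Blocks of under 200 positions (41521 positions in tiles with under 5) averaged 22.7% in R and 21.5% in WT, 1.22 points more in R. Blocks of 500 or more (130352 positions) averaged 29.4% in R and 29.9% in WT, a difference of -0.550 points. The sparse difference was above 0 on 19 of 19 autosomes, from 0.607 points on chromosome 13 to 1.85 on chromosome 16. The dense difference was below 0 on 18 of 19, and lowest on chromosome 15 at -0.791 points. Chromosome 3 was the exception, at 0.148 points. Autosomes share the same 2 pools and are not replicates. The sparse minus dense contrast was 1.77 points over all autosomes (95% interval 1.71 to 1.84) and 1.01 to 2.45 points on single ones. Leaving out any 1 autosome kept it between 1.73 and 1.82. Without the depth rule the contrast was 1.76, but both parts moved up, to 2.69 points in sparse and 0.926 in dense blocks. The sign in dense blocks therefore depended on that rule, while the contrast stayed close. Without the rule, tiles and blocks were classed anew over the larger set. The 2 contrasts are thus not over the same classes, with 171873 positions under the rule and 216900 without it.

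**Figure D2:**
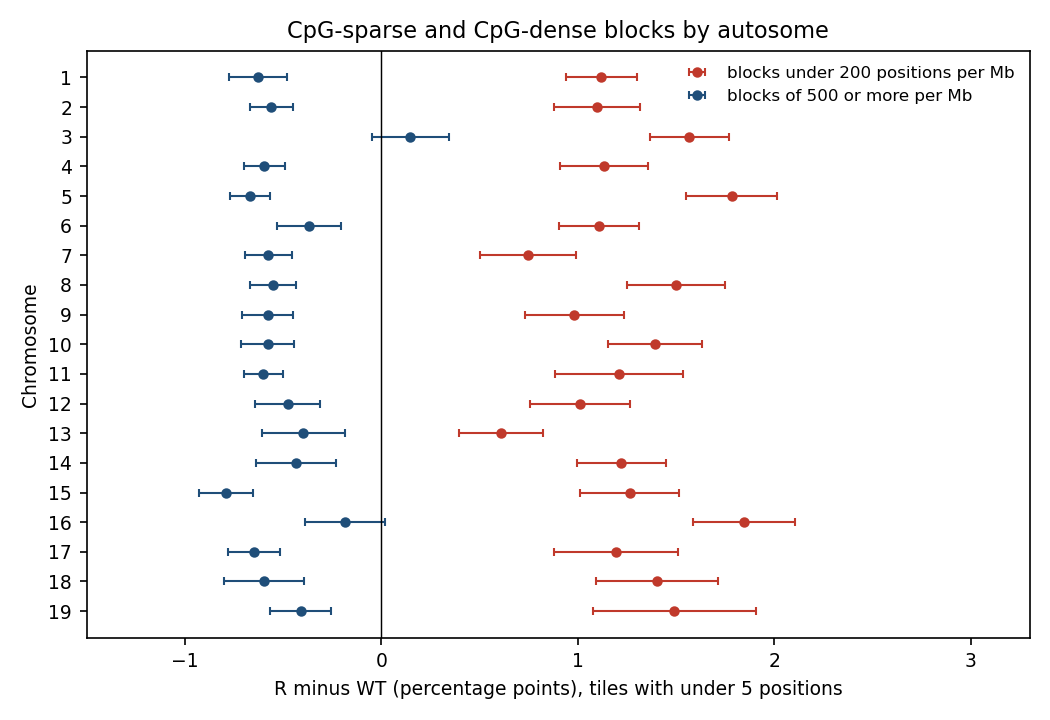
R minus WT in percentage points (horizontal axis) for each autosome (vertical axis), in tiles with under 5 positions; red points are blocks with under 200 positions per Mb, blue points blocks with 500 or more, and bars are 95% counting intervals. Red points lie above 0 on 19 of 19 autosomes and blue points below 0 on 18 of 19, chromosome 3 being the exception at 0.148.

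Bins of several sizes were described by sorting the same positions by the CpG count of the bin around them. The 49080 in the sparsest and the 49080 in the densest bins were taken. The sparsest minus the densest gave 0.688 points for bins of 10 kb, 1.67 for 100 kb, 1.87 for 1 Mb and 1.70 for 5 Mb. The contrast was smallest for 10 kb bins, but their counts were coarse. The sparsest group reached up to 3 positions and the densest began at 13, against 230 and 986 for 1 Mb. Positions with tied counts were split in genome order. The bin sizes are thus not compared on equal terms, and these values do not give the scale of the pattern. Position along the chromosome showed a smaller change, with R minus WT at 0.334 points in the first 5 Mb, 0.410 points at 10 to 20 Mb and -0.0581 points beyond 100 Mb. Mouse chromosomes carry their centromere at the start, and these first stretches were not matched for block density.

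Single 1 Mb blocks repeated the picture. Of 1776 blocks with at least 100 positions, 29 (1.63%) were at least 2 points higher in R and 0 (0%) were at least 2 points lower. Across blocks the difference ranged from -1.63 to 3.88 points, with a median of 0.105, an SD of 0.613 and a median counting SE of 0.199. Block levels of R and WT correlated at r = 0.993. The difference fell with the log2 number of positions in the block at r = -0.457 over the 1776 blocks, again a description. The 29 high blocks had a median of 120 positions, against 367 for all blocks, and lay on 14 autosomes. The counting error of small blocks is wider, and its part in these calls was not tested. The count depended on the smallest block allowed. With at least 50 positions, 147 of 2117 blocks were higher and 1 lower, and with at least 200 only 1 of 1392 was higher. Without the depth rule 150 of 1917 were higher and 0 lower.

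Among the 5 highest blocks, chr7:12000001-13000000 had 20.2% in R and 16.3% in WT over 107 positions (WWD 4.32%, TKO 0.247%). The block chr6:68000001-69000000 had 18.6% and 15.4%, and chr9:4000001-5000000 had 18.1% and 15.01%. Lower levels were read in chr14:98000001-99000000, at 11.2% and 8.32%, and in chr1:97000001-98000000, at 9.93% and 7.18%. All coordinates are of mm9. These 5 blocks were 2.76 to 3.88 points higher in R, with 107 to 170 positions each. The lowest blocks were closer to WT. Among them chr15:86000001-87000000 had 20.4% in R and 22.1% in WT over 301 positions, and chr12:54000001-55000000 had 20.3% and 22.0%. The block chr10:76000001-77000000, with 695 positions, had 24.1% in R and 25.6% in WT. The other two were chr9:117000001-118000000, at 23.5% and 24.8%, and chr14:59000001-60000000, at 17.9% and 19.3%. In the last of these the reverse strand differed by only -0.0798 points and the forward strand by -2.74, so its strands did not match in size.

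**Figure D3:**
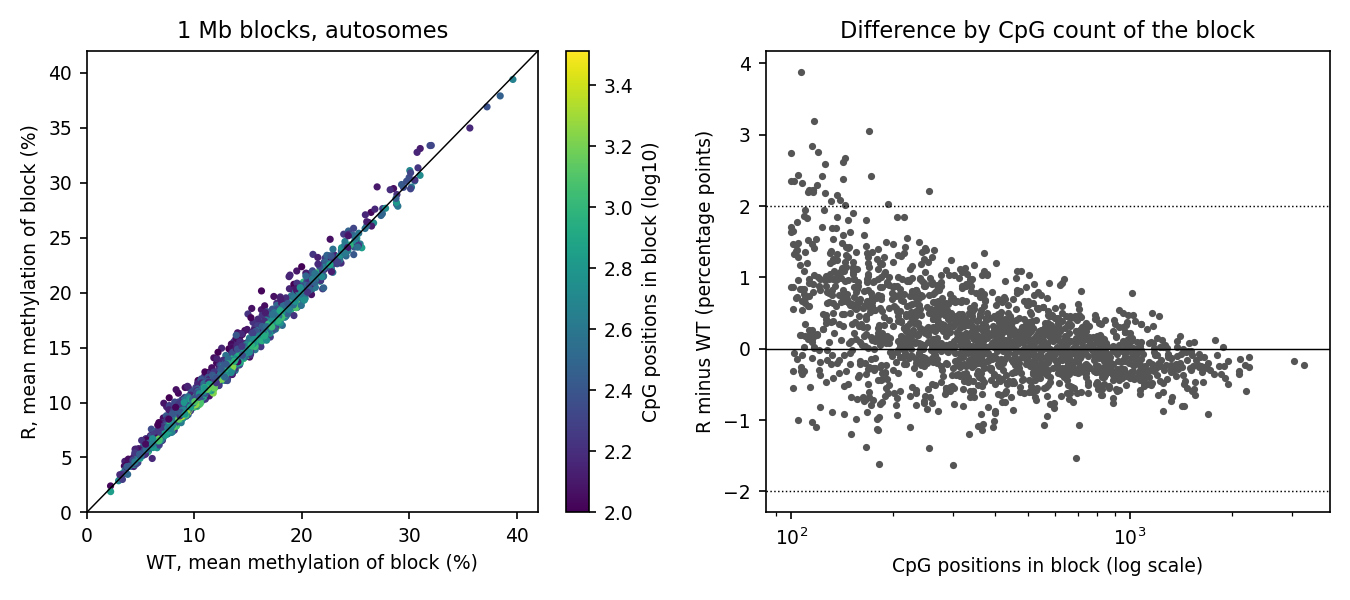
Left, mean methylation in percent of 1776 autosomal 1 Mb blocks in WT (horizontal axis) and R (vertical axis), coloured by the log10 number of CpG positions, with the line of equality; right, R minus WT in percentage points against the number of CpG positions per block on a log scale. Points narrow and move from above to below 0 as the number grows, and 29 blocks lie above the dotted line at 2 points while 0 lie below that at -2.

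Few single positions or tiles differed clearly. By Fisher's exact test with Benjamini-Hochberg adjustment over the 1690346 nuclear positions covered in both pools, with a call where the adjusted p was under 0.01 and the pools were 25 or more points apart, 616 of the compared positions (0.069%) were higher in R and 516 (0.0578%) lower. Over the whole nuclear table the shares were 0.235% higher and 0.0439% lower, so most of the 3966 higher calls of that table lay outside the compared positions. The median called difference was 28.7 points among the higher and -28.6 among the lower. Called positions were scattered: 1104 tiles held at least 1, and 27 held 2 or more. Within those 27 tiles the called positions shared a direction in 27, though positions of a tile can share reads.

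Tiles of 1 kb with at least 5 positions were tested on read counts in which neighbouring CpGs of a strand were averaged, so that a read counts about once. With an adjusted p under 0.01 and pools 10 or more points apart, 40 of 43551 autosomal tiles (0.0918%) were higher in R and 33 (0.0758%) lower. Over all 44677 nuclear tiles tested the shares were 0.0985% and 0.0761%. Without the depth rule the split was 218 higher and 34 lower among 60009 tiles. The median called difference was 12.5 points upward and -12.5 downward. The tile levels correlated at r = 0.982, and 87.8% of tiles were within 5 points. Called tiles had WT levels of 7.27% to 64.2%, against a median of 6.40% for all tiles, and TKO levels up to 1.50%. The 10-point limit keeps tiles with WT under 10% from being called lower, so it partly set the WT levels of called tiles. Called tiles lay on 17 autosomes. Sparse blocks held 5 higher and 1 lower of them among 4193 tiles, and dense blocks 15 higher and 26 lower among 27975. In the exact test as made, 4181 of the 43551 tiles had an unadjusted p under 0.05, a limit that some tiles pass without any difference. When summed counts were divided by the number of positions, the strictest weighting tried, no tile was called. The single tiles named next therefore rest on how reads are counted.

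The 5 tiles with the largest rise are given with Fisher's exact test and adjusted p. The tile chr12:11215001-11216000 had 46.4% in R and 27.8% in WT over 5 positions (exact test, adjusted p = 0.00468), with 5 of 5 positions higher in R. The tile chr2:40440001-40441000 had 29.3% and 10.96% over 8 positions (exact test, adjusted p = 0.0044), all on the reverse strand. The tile chr13:10301001-10302000 had 35.2% and 18.6% (exact test, adjusted p = 5.98e-05). The most methylated was chr3:137620001-137621000, with 70.1% in R and 53.8% in WT (exact test, adjusted p = 0.000247) and 21.7% in WWD. The smallest p of the 5 was that of chr10:44161001-44162000, with 24.7% and 8.50% over 10 positions (exact test, adjusted p = 1.77e-06). In it R ranged from 5.11% to 59.8% over the positions and WT from 0.820% to 22.2%, and 10 of 10 positions were higher in R. The tiles were picked for a large rise and their positions can share reads, so a shared direction within a tile adds no support. C stayed at 0% to 1.39% in these tiles and TKO at 0% to 0.232%.

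The 5 tiles with the largest fall were tested in the same way. The tile chr4:153622001-153623000 had 18.998% in R and 39.6% in WT over 5 positions (exact test, adjusted p = 0.00631). Its forward strand differed by -31.9 points and its reverse strand by -3.57, so the fall was uneven. The tile chr7:3297001-3298000 had 14.7% and 33.8% over 7 positions (exact test, adjusted p = 4.85e-06), with strands at -17.9 and -20.7 points. The tile chr2:144574001-144575000 had 41.8% in R and 60.8% in WT (exact test, adjusted p = 0.00148), while WWD had 3.41%. The tile chr3:146111001-146112000 had 39.7% and 56.8% (exact test, adjusted p = 0.00595), and chr15:82007001-82008000 had 20.7% and 37.4% (exact test, adjusted p = 0.00435). None of the positions in these 5 tiles was higher in R, which the choice of tiles by their fall favours. What genes lie at these tiles was not analysed here, since the gene table at hand is of another build.

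Differences on opposite strands of the same place were only loosely related. Across the 87159 sites read on both strands, r between the forward and reverse differences was 0.0588. Across 24925 tiles with at least 3 positions on either strand it was 0.134, and across 1727 blocks with at least 50 on either strand 0.288. Neighbouring blocks correlated at 0.176 over 1460 pairs. These values average over more positions at each step, so they do not give the scale of a difference.

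Read depth was compared as R over WT coverage, divided by its autosomal median, to look for changes in copy number. Windows of 5 Mb with at least 100 positions numbered 500. Their relative ratio ranged from 0.922 to 1.08, with an SD of 0.0176, and 0 windows (0%) were below 0.9 and 0 (0%) above 1.1. A chromosome stretch present in an extra copy in all R cells, and not in WT cells, would have a ratio of 1.5. The limit of 1.1 corresponds to an extra copy in 20% of cells, the highest window to 16.5% and, for loss of a copy, the lowest window to 15.6%. These are conversions of the ratio, not estimates for R cells. R over the median of the other 4 pools was 0.984 in the highest window and 0.925 in the lowest. A change in a smaller share of the pooled cells, or one present in R and WT alike, would not have been seen. WWD had 4 windows above 1.1, C 3 and TKO 4, each over the same WT pool. The ratio of TKO to WT entered the choice of positions, so the TKO values here and below are a description. Against the median of the other 4 pools, R ranged from 0.922 to 1.04.

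Whole autosomes were closer still. The ratio ranged from 0.996 on chromosome 17 to 1.004 on chromosome 8. As a share of cells with an extra copy, the highest value corresponds to 0.855%, and the lowest to 0.763% of cells with a copy lost. This conversion takes an extra copy in all cells as a ratio of 1.5. It makes no allowance for the raised depth on chromosome 8, so 0.855% does not hold for that stretch. On chromosome 8, from 10 to 95 Mb, depth relative to the autosomal median was 1.47 in R and 1.47 in WT, and the ratio of R to WT was 1.0002. The rest of that chromosome had 1.01 in R and 1.02 in WT. WWD, C and TKO over WT were at 0.998, 0.997 and 0.996 in the stretch, so its raised depth was common to the 5 pools.

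**Figure D4:**
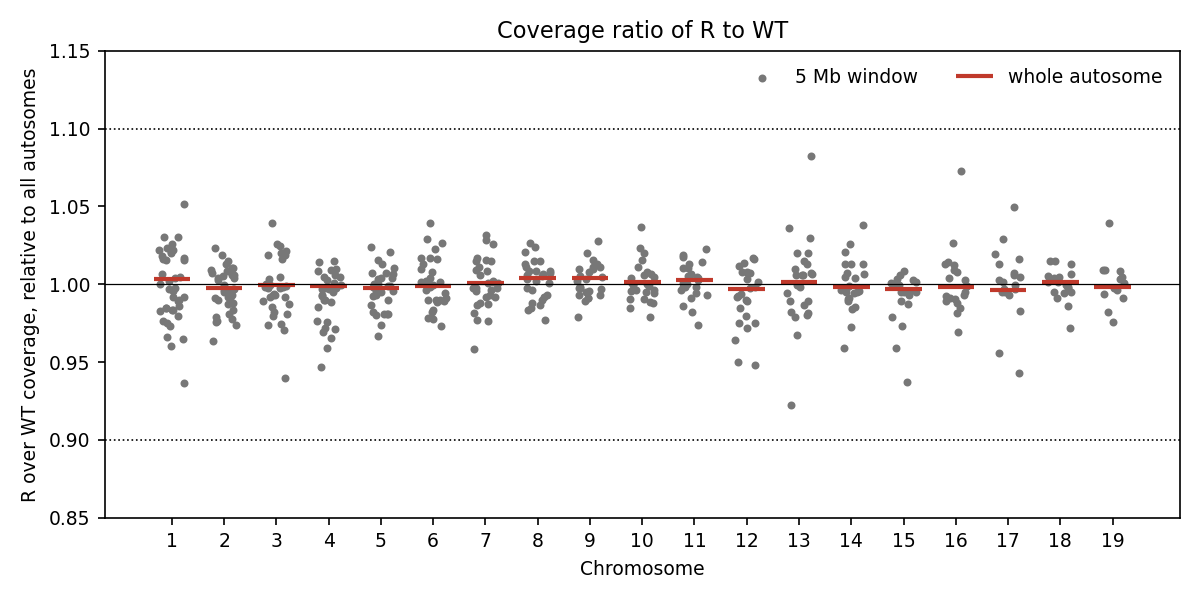
Coverage of R over WT relative to all autosomes (vertical axis) by chromosome (horizontal axis); grey points are 500 windows of 5 Mb and red bars whole autosomes, with dotted lines at 0.9 and 1.1. All windows lie between 0.922 and 1.08, and the autosomes between 0.996 and 1.004.

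Windows held a median of 1342 positions, and 9 of the 10 named here, the 5 highest and the 5 lowest, held fewer. The highest was chr13:85000001-90000000, at 1.08 over 331 positions, where WWD had 1.07, C 1.11 and TKO 1.13 over the same WT pool. Next came chr16:70000001-75000000 at 1.07, chr1:145000001-150000000 at 1.052, chr17:90000001-95000000 at 1.049 and chr19:15000001-20000000 at 1.04. In 4 of these 5 the WWD, C and TKO pools were also above 1 on the same scale, and in chr17:90000001-95000000 WWD was at 0.9998. The lowest was chr13:120000001-125000000, at 0.922 over 189 positions, with WWD at 1.03. Then followed chr1:115000001-120000000 at 0.937, chr15:15000001-20000000 at 0.937, chr3:45000001-50000000 at 0.940 and chr17:35000001-40000000 at 0.943. The last held 3533 positions and was also low in WWD (0.949), C (0.946) and TKO (0.9499). It contains the 9 kb stretch chr17:39978001-39987000 described below, with 637 of its positions. Ratios to WT in that stretch were 0.372 in R, 0.449 in WWD, 0.328 in C and 0.766 in TKO. The part of the stretch in the window's ratio was not tested. Forward and reverse strands of a window correlated at r = 0.247, and neighbouring windows at 0.0605 over 480 pairs, so little of the remaining spread ran along the chromosome.

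At a finer scale of 300 kb, 3 of 4004 bins (0.0749%) were below 0.8 and 0 (0%) above the inverse of that limit, a scale chosen after the data had been seen. The 3 lay in 2 places. The first, chr2:75100001-75700000, is the run of 100 kb bins in which the ratio stayed below 0.8. Its 202 positions had a median depth of 1.14 in R, 1.64 in WT, 1.11 in WWD, 1.07 in C and 1.13 in TKO, relative to the autosomal median of each table. WT alone was high. The ratio to WT was 0.696 for R, 0.669 for WWD and 0.666 for C, where 2 copies against 3 would give 0.667. It was 0.694 for TKO, whose ratio to WT the choice of positions had used. R over the median of the other 4 pools was 0.980. In the 600 kb before the stretch the ratio of R to WT was 0.966 over 785 positions, and in the 600 kb after it 0.964 over 233. Methylation in the stretch was 16.0% in R and 15.3% in WT. Since the stretch was picked for its low ratio of R to WT, these values describe it, and the cause of the step in depth was not tested.

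**Figure D5:**
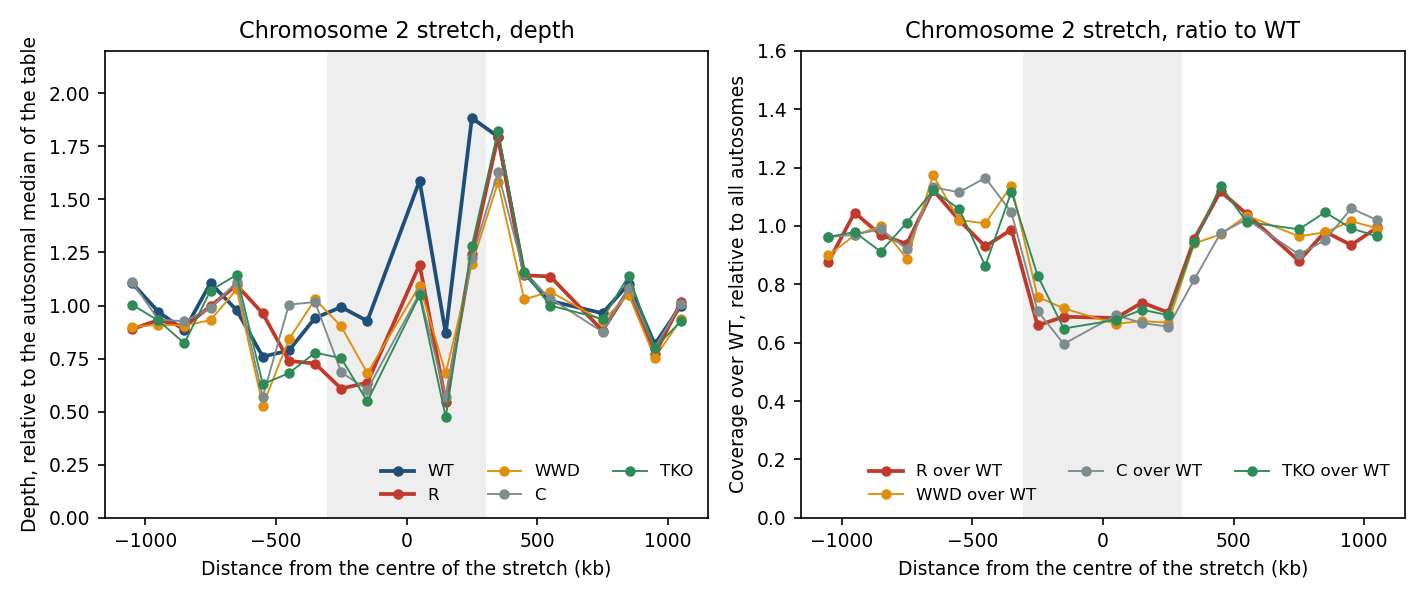
Left, median depth in 100 kb bins of the 5 pools, relative to the autosomal median of each (vertical axis), by distance in kb from the centre of the chromosome 2 stretch (horizontal axis, stretch in grey); right, coverage over WT of R, WWD, C and TKO in the same bins. In the stretch the 4 pools lie together below WT, with ratios of 0.696, 0.669, 0.666 and 0.694 over its positions.

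The other place, chr17:39978001-39987000, was 9 kb long and had 637 positions with very uneven depth. The median relative depth was 0.447 in R, 1.58 in WT, 0.580 in WWD, 0.430 in C and 1.09 in TKO. Single positions reached 28779 reads in R and 30229 in WT. The stretch took 2.12% of the R reads and 2.58% of the WT reads at the compared positions. At the 190 positions with at least 5000 WT reads the ratio of R to WT was 0.819, and at the other 447 it was 0.297. No copy number was read from so uneven a depth. Methylation was low in both pools, at 1.18% in R and 1.598% in WT.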

How the data were processed

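RRBS libraries were read as deposited tables of CpG positions on mm9. Bismark and methylKit were named in the submitters' processing notes, without versions or settings. Per the file headers, the deposited tables hold coverage as a read count and the shares of C and of T in percent, and the tables used start at a coverage of 10. Methylated counts were recovered as coverage times percent of C; 99.97% of R and of WT products were whole within 0.1. Of the deposited tables, 1 is tied to no sample and was not used, and 8 value columns were not used in all. Reads at the compared positions numbered 146283504 calls in R and 124679773 in WT.

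R and WT were joined on chromosome, position and strand. Levels are means over positions, with counting error from read counts. Positions and tiles were compared with two-sided Fisher's exact tests, adjusted by Benjamini-Hochberg over all nuclear features. In tiles, counts of same-strand positions within 50 bp were averaged, then summed. The code was tested on simulated data. The named tiles, blocks and windows were the 5 highest and 5 lowest (for tiles, among those called). Positions, classes and lists were chosen with earlier results of these data known. Alternatives covered coverage minimum, depth rule, strand, tile, block and window size, and thresholds. Python 3.11.15, pandas 2.3.3, numpy 2.4.6, scipy 1.17.1 and numba 0.67.0 were used.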

Additional observations from a re-analysis of the deposited data

How the results depend on the processing

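No paired analysis was possible because each group has 1 deposited table for its numbered samples; leaving out a replicate was not possible for the same reason. The mean difference and the sparse minus dense contrast kept their sign under the alternatives tried. Counts of called features have no sign, so this could not be asked of them. A part of the contrast did change sign: the dense-block difference of -0.550 points became 0.926 without the depth rule, with tiles and blocks classed anew. The mean difference of 0.0755 points became 0.205 with the depth rule taken from TKO and C, 0.692 with no depth rule and 0.3996 with reads pooled over positions. The 1132 called of 892375 CpG positions became 3098 of 1261657 (2490 higher, 608 lower) without the depth rule. Over the 892375 there were 4688 at 10 points or more, 107 at 40 points and 2022 at an adjusted p under 0.05. The 73 called of 43551 tiles became 252 of 60009 without the depth rule and 4 of 19508 with at least 10 positions. Over the 43551 tiles there were 566 with summed reads and 0 with summed reads divided by positions. There were 147 at 5 points and 1 at 20 points. The 29 of 1776 blocks became 18 of 1734 at a coverage of at least 30 and 150 of 1917 without the depth rule. With at least 50 positions they became 148 of 2117 (147 higher, 1 lower), and with at least 200 positions 1 of 1392. Among 1135 blocks of 2 Mb there were 49. Against 0 of 500 windows outside 0.9 to 1.1, there was 1 of 501 without the depth rule and 1 of 500 by summed coverage (0.841). Of 1135 windows of 2 Mb there were 3 (lowest 0.559). Outside limits 2 times as narrow there were 10 of 500. The windows include the chromosome 17 stretch of uneven depth, with 637 positions at an R to WT ratio of 0.372. No copy number was read from these window values. The sparse minus dense contrast of 1.77 points, whose alternatives were chosen after seeing the data, was 1.69 at coverage 20, 1.69 at coverage 30, 1.70 on the forward strand, 1.85 on the reverse strand and 2.52 with limits of 100 and 1000 positions per Mb. The cause of these shifts was not tested, beyond fewer or more features entering. Counting error alone gave an SD of 3.93 points for the difference at single positions, against 5.99 observed.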

Other observations

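On the X chromosome, which was not part of the comparison, positions in tiles with under 5 followed a like order by block. R averaged 18.6% and WT 15.9% in 89 blocks with under 100 positions, 2.70 points more in R (counting SE 0.119). The difference was 1.47 points in 43 blocks of 100 to under 200 positions, 0.942 in 17 of 200 to under 300 and 0.390 in 11 of 300 to under 500. It was -0.319 in 2 blocks of 500 to under 1000 and 0.0635 in 1 of 1000 or more, with counting SEs of 0.381 and 0.6002.

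Autosomal positions outside the depth rule had larger differences in every class of block. In tiles with under 5, R averaged 34.996% and WT 28.1% in blocks with under 100 positions, and 47.6% and 43.4% in blocks of 1000 or more. The differences were 6.91 and 4.19 points, in the same order as inside the rule. TKO read 2.32% and 2.43% there, above its 0.251% and 0.237% inside the rule, and WWD 20.3% and 31.4%. For the positions outside the rule, tile counts were taken over all autosomal positions covered in R, WT and TKO. Inside the rule they were taken over the compared positions only, so the tile classes of the 2 sets are not alike. Block counts were of the compared positions in both.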
